A study of Mus musculus with 18 samples.

Results

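The comparison covered 6 of the 18 liver arrays of a mouse study, taken by their labels: 3 Nrf2 knockout livers, labelled Nrf2 KO, and 3 livers of the matching genetic control, labelled Nrf2 Control. The KO mice carried no functional Nrf2 allele, Nrf2(-/-), and the controls carried both, Nrf2(+/+). All 6 samples came from female C57BL/6 mice aged 6 weeks, and the labels name no treatment. The other 12 arrays belonged to 2 lines of mixed strain, also female and aged 6 weeks. One was a Keap1 line, with 3 knockdown livers, Keap1(Kd/-), and 3 controls that carried 1 knockdown allele, Keap1(Kd/+). The other was an Nrf1 line, with 3 conditional knockout livers, Nrf1(dN/-)::Alb-Cre, in which Cre is driven by the albumin promoter of hepatocytes, and 3 controls, Nrf1(dN/+). The Nrf2 knockout is not tied to a cell type in the labels. Nothing in the labels tells whether replicates came from different animals; the p-values then refer to the spread among the samples at hand, and this spread may be technical.

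NRF2, encoded by Nfe2l2, is a transcription factor that binds antioxidant response elements as a partner of small MAF proteins. KEAP1 holds it in the cytoplasm and, with the ubiquitin ligase CUL3, marks it for breakdown, until reactive compounds modify KEAP1 and NRF2 reaches the nucleus. In liver it is known for driving enzymes that reduce quinones, conjugate reactive compounds with glutathione or glucuronic acid, supply glutathione and NADPH, and export the products.

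The core of the antioxidant response element is commonly written TGACNNNGC. These letters, searched on both strands of the 250 bases before each transcription start in RefSeq's promoter table (build GRCm38.p6), were present in 3338 of 32851 windows (10.2%). Among the genes tested on the arrays, 1429 of the 10299 with a window held them (13.9%). Of the 8 genes called in the knockout that had a window, 2 held them, Keg1 and Nfe2l2 itself. Of 57 genes named for this comparison that had a window, 11 held them. Besides these 2, Pir, Ugdh, Gsta3, Txnrd1, Htatip2 and Ccnb1 lay lower on every KO array than on any control, whereas Abcc4, Gclm and G6pdx overlapped between groups. Over all genes tested, 11% lay lower in this way. Pir, Htatip2 and Ccnb1, like many of the 57, were named after their values were seen. The split therefore says nothing about the motif. Promoters are shown for 4 of the motif-bearing genes that lay lower, picked after their values were seen, with the motif in capitals. They are Keg1 (chr19:12695540-12695789, plus strand), whose motif starts 185 bases before the start; Pir (chrX:164269181-164269430, plus strand), at 214 bases; Ugdh (chr5:65435843-65436092, minus strand), with motifs at 132 and 94 bases; and Gsta3 (chr1:21240335-21240584, plus strand), at 121 bases. The match is one of letters in this window and was not tested as a site.
Keg1: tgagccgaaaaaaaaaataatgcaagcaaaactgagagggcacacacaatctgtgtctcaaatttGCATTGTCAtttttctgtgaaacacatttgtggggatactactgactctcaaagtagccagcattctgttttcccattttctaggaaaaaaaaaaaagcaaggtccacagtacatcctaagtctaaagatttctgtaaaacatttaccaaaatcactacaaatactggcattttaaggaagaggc
Pir: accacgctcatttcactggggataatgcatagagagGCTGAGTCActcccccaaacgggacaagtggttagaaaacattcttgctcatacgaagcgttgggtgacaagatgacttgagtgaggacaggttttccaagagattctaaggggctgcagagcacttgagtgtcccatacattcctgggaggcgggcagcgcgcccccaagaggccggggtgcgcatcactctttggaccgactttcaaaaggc
Ugdh: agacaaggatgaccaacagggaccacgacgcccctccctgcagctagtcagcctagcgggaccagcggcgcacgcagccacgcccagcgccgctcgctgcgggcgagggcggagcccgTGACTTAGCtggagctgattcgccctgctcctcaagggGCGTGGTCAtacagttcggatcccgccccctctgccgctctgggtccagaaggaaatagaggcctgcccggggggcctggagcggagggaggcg
Gsta3: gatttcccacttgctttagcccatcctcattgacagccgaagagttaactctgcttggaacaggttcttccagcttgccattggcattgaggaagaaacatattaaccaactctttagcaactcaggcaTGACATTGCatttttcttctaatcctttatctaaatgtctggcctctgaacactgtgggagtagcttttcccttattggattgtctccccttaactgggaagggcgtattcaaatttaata
The windows of Aox1, Ces1b, Ces1g, Nqo1, Cox7a1 and Srsf3 held no such match.

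Each level below is the log2 of a signal over the 75th percentile of its array, so that 0 is the signal of a fairly bright spot and 1 unit is a doubling. Between 22235 and 25493 spots of each of the 6 arrays (51.3% to 58.8%) were well above background, and none was saturated. Levels correlated across genes at 0.984 to 0.987 between control arrays, at 0.988 to 0.991 between KO arrays and at 0.981 to 0.987 between the groups. All 3 Nrf2 controls were hybridized on 1 slide, together with Keap1 control 1, and scanned on 1 day, whereas the 3 KO arrays lay on 3 other slides scanned on 2 other days. Slide, scan day and Nrf2 genotype therefore cannot be told apart within these 6 arrays. Only Keap1 arrays link the slides of KO 2 and KO 3 to that of the controls, and KO 1 lay alone on its slide. For that reason the level of Keap1 control 1 minus the mean of Keap1 controls 2 and 3, which lay on other slides, is given beside many of the results as the control-slide difference. It is a difference between 1 liver and 2 others, positive where the liver on the slide of the Nrf2 controls was higher. In it, 1109 of 17670 genes differed by at least 1 log2 unit. Values fitted with slide or scan day as a block rest on the same few linking arrays. With slide as a block, KO 1 adds nothing to the Nrf2 effect, which then rests on KO 2 and KO 3. The number of arrays limits the precision, with a median standard error of 0.244 for the log2 fold change of a gene.

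Liver without NRF2 differed from control liver in 11 of 17721 genes tested (0.0621%; limma, adjusted p under 0.05), of which 10 fell (0.0564%) and 1 rose (0.00564%). Those that fell were Nfe2l2 itself, the aldehyde oxidase gene Aox1, the carboxylesterase genes Ces1b, Ces1f and Ces1g, the quinone reductase gene Nqo1, Keg1, the splicing factor gene Srsf3 and the array transcripts NAP030039-1 and NAP057074-1, which carry no gene name. Cox7a1, encoding a subunit of cytochrome c oxidase, rose. Without the adjustment for multiple tests, 672 genes were higher (3.79%) and 904 lower (5.1%) at p under 0.05. In 3685 genes (20.8%) the 3 KO values did not overlap the 3 control values, 1737 of them higher (9.8%) and 1948 lower (11%) in KO. The median log2 fold change of all genes was 0.01. Of the 11 calls, 4 were kept when the 6 Nrf2 arrays were fitted alone (Nfe2l2, Aox1, Ces1b and NAP030039-1), and 3 with slide or scan day as a block (Nfe2l2, Aox1 and NAP030039-1). Because the tissue is bulk liver, fewer cells of a type and less RNA per cell cannot be told apart.

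**Figure D1:**
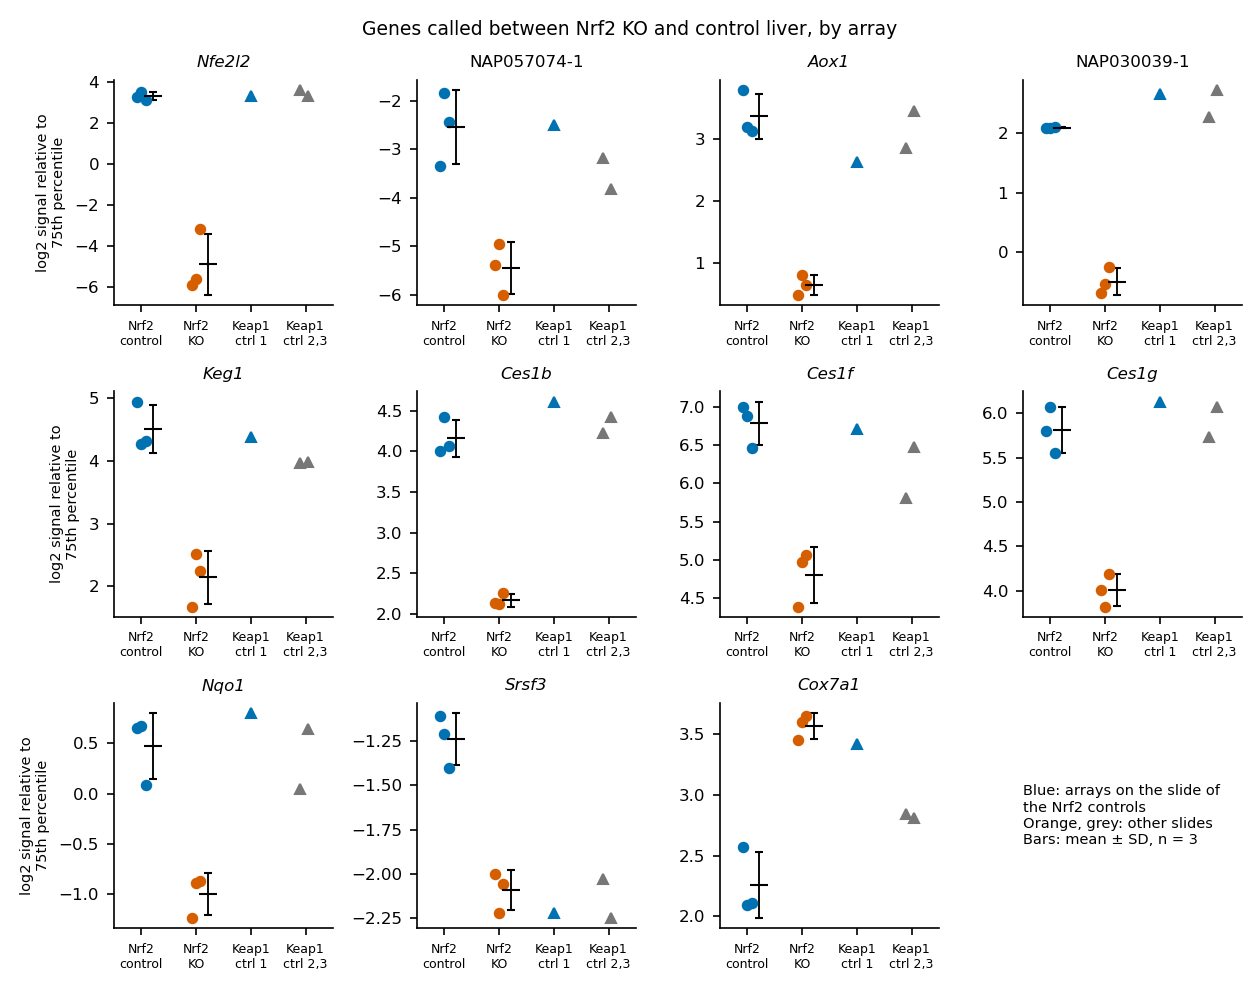
Level on each array, as log2 of the signal over the 75th percentile, for the 11 called genes, with 1 point per array, and mean and SD beside the Nrf2 groups. Triangles are the Keap1 control arrays, blue where they shared the slide of the Nrf2 controls; in every panel the orange KO points lie apart from the blue Nrf2 control points, and for Srsf3 the 3 Keap1 controls lie at the level of the KO points.

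Nfe2l2 was the check of the labels. Its level was 3.30, 3.52 and 3.13 on the control arrays and −5.90, −5.59 and −3.16 on the KO arrays. Every KO array lay more than 6 log2 units below every control, and 1 of them, KO 3, remained above background. The change was −8.20 (SE 0.48, limma adjusted p = 4.46e-07), a size that rests in part on values below background (−4.77 after normexp correction). A second probe gave −7.30, and it too was above background on 1 KO array. The sources used here do not state where these probes lie relative to the deletion. The 3 Keap1 controls, at 3.36, 3.62 and 3.35, lay at the level of the Nrf2 controls on whichever slide they were hybridized.

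Of the partners and regulators of NRF2, 15 were tested and Nfe2l2 was the only one called. The list's median log2 fold change was −0.03. Keap1 was at 3.49, 4.41 and 4.40 in controls and at 4.27, 4.15 and 4.21 in KO, so that the KO values lay between the control values. Its change was 0.11 (95% interval −0.55 to 0.77; adjusted p = 0.953). Nfe2l1, which encodes the related factor NRF1, was at 0.00 (interval −0.36 to 0.37; adjusted p = 0.995). The small MAF genes Mafg, Mafk and Maff gave −0.03, −0.17 and 0.45, the repressor gene Bach1 −0.07, and the ligase gene Cul3 0.28. Among the adaptors and related factors, Sqstm1 gave −0.25 and Nfe2l3 0.69.

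Aox1 showed the lowest change among the called genes that stayed above background on all 6 arrays. Aldehyde oxidases are molybdenum enzymes that oxidize aldehydes and nitrogen-containing ring compounds, many of them drugs. Aox1 lay at 3.78, 3.18 and 3.13 in controls and at 0.48, 0.80 and 0.64 in KO. The KO values were close together and far below the controls. The gene fell 6.61-fold (log2 −2.73, SE 0.22, limma adjusted p = 1.2e-05), and with slide or scan day as a block the change was −2.99 and −3.10 (adjusted p = 0.0475 and 0.0131). The control-slide difference was −0.53. Aox3, the next aldehyde oxidase gene along chromosome 1, lay at 3.92, 3.19 and 3.30 in controls and at 1.65, 1.82 and 1.80 in KO. These groups did not overlap either, but the change of −1.71 (SE 0.30) did not pass the test (adjusted p = 0.0606). Aox2 and Aox4 were not among the genes tested.

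Ephx1, the microsomal epoxide hydrolase, had control levels of 5.51, 4.14 and 4.80 and KO levels of 3.49, 3.40 and 3.79. The control values were spread wide and the KO values lay below all of them. The change of −1.26 (SE 0.31) had an adjusted p of 0.24, and a second probe gave −1.23. The soluble hydrolase Ephx2 was at −0.03. In the same list the flavin monooxygenase genes Fmo5 and Fmo1 were at 0.69 and −0.09, neither of them called. Of the 10 tested members of this list 1 was called, 3 lay lower and 1 higher without overlap (11% and 9.8% over all genes), and the median was −0.06.

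Carboxylesterases, which split ester bonds of lipids and drugs in the endoplasmic reticulum of hepatocytes, were the family with the most calls. All 14 tested members had a log2 fold change below 0, with a median of −0.48. Of them 3 were called lower and 7 lay lower on every KO array than on any control (0.0564% and 11% over all genes). The median became −0.17 when slide, and −0.20 when scan day, was added as a block. Ces1b was at 4.0, 4.42 and 4.06 in controls and at 2.13, 2.12 and 2.26 in KO, with little spread in either group. It fell 3.97-fold (log2 −1.99, SE 0.16, limma adjusted p = 1.2e-05).

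Ces1f, a bright gene of the same cluster, lay at 7.0, 6.88 and 6.46 in controls and at 4.39, 4.97 and 5.06 in KO. Its groups were more than 1 log2 unit apart, and it fell 3.92-fold (log2 −1.97, SE 0.23, adjusted p = 0.00133). Ces1g lay at 5.80, 6.07 and 5.55 in controls and at 4.01, 3.82 and 4.19 in KO. Again no KO value came near the control range, and the gene fell 3.47-fold (log2 −1.79, SE 0.23, adjusted p = 0.00276), with −1.81 from a second probe. The control-slide difference was 0.28 for Ces1b, 0.56 for Ces1f and 0.23 for Ces1g. With slide as a block these genes gave −1.78, −1.19 and −1.69 (adjusted p = 0.285, 0.558 and 0.493), so no Ces1 call was kept there, nor with scan day as a block.

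The calls did not cover the whole cluster. In the order of genes along chromosome 8, Ces1c, Ces1d and Ces1e lie between Ces1b and Ces1f, and they were at −0.14, −0.07 and −0.68, with adjusted p-values of 0.871, 0.952 and 0.362. Of the Ces2 genes, Ces2b was at 3.75, 2.59 and 2.50 in controls and at 0.37, 1.14 and 1.02 in KO. Its groups did not overlap, yet control 1 stood more than 1 log2 unit above the other controls, and the change of −2.10 (SE 0.56) was not called (adjusted p = 0.28). The control-slide difference of Ces2b was 1.90, and with slide as a block its change was 0.16. Ces2a, Ces2c and Ces2g lay between −0.12 and −0.03. Members of this family are close in sequence, and whether a probe also reads a relative was not tested.

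**Figure D2:**
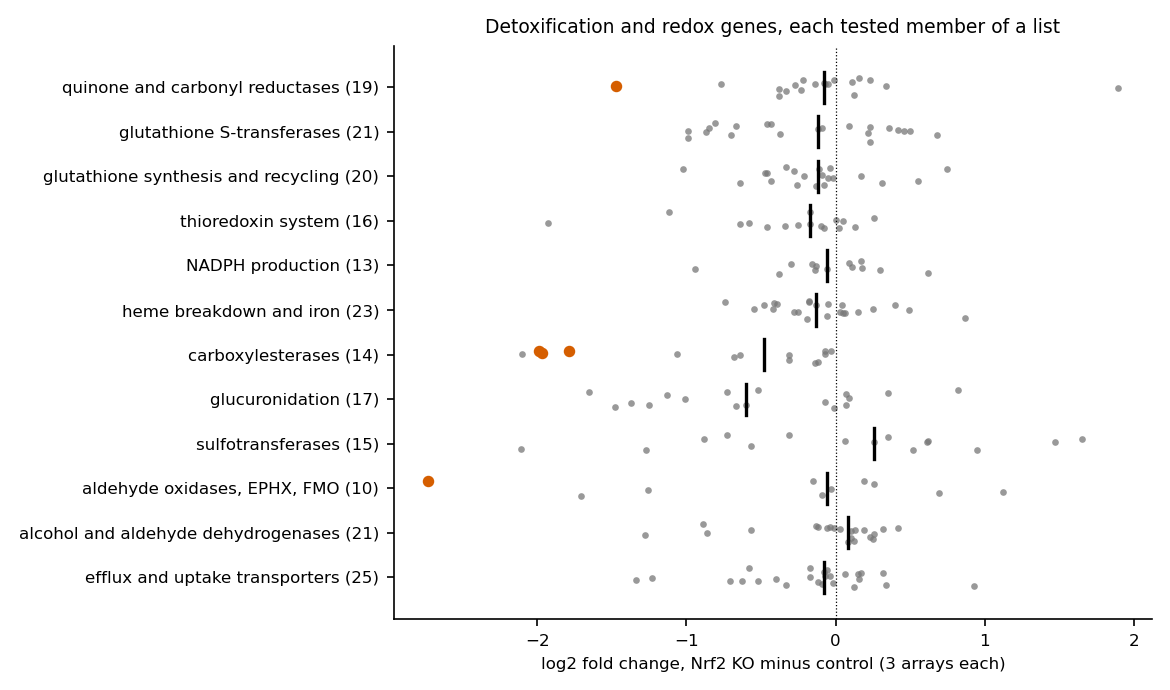
Log2 fold change, Nrf2 KO minus control, of every tested member of 12 lists of detoxification and redox genes, with the number tested in brackets. Orange points are called genes and black bars are medians; the medians of carboxylesterases (−0.48) and glucuronidation genes (−0.60) lie farthest below 0, and Akr1b7, at 1.89, lies farthest above.

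Nqo1, the quinone reductase gene widely used as a readout of NRF2, was at 0.65, 0.67 and 0.09 in controls and at −1.24, −0.89 and −0.87 in KO. All KO values were below 0 and all control values above it. It fell 2.77-fold (log2 −1.47, SE 0.25, limma adjusted p = 0.0384), just inside the threshold. The control-slide difference was 0.45. With slide and scan day as a block the change was −0.80 and −0.94 (adjusted p = 0.747 and 0.679). The call was also lost when any array except control 3 was left out, with values between −1.66 and −1.35.

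The other reductases held no call. Of 19 tested members of the list, 1 was called, 5 lay lower and 2 higher without overlap (11% and 9.8% over all genes), and the median was −0.08. Cbr3, a carbonyl reductase gene, was at 1.69, 0.91 and 0.71 in controls and at 0.54, 0.83 and 0.95 in KO, so the groups overlapped (−0.33, adjusted p = 0.89). The aldo-keto reductase Akr1b7 lay at 1.04, 0.82 and −0.23 in controls and at 1.99, 2.64 and 2.66 in KO. These groups did not overlap, but the change of 1.89 (SE 0.42) was not called (adjusted p = 0.18). Akr1c14 was at −0.77 and Nqo2 at −0.05. Pir encodes pirin, a nuclear iron-binding protein, and its promoter is printed above. It was at 2.42, 2.25 and 2.18 in controls and at 0.58, 1.24 and 0.89 in KO. Here too the groups were apart, with a change of −1.38 (SE 0.25) that missed the threshold (adjusted p = 0.0606). Its control-slide difference was 0.45, and its value with slide as a block −0.63.

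Keg1 was named for its expression in kidney, and its motif-bearing promoter is printed above. The control levels were 4.94, 4.26 and 4.32, and the KO levels 1.68, 2.51 and 2.25. The highest KO value lay more than 1 log2 unit below the lowest control. It fell 5.11-fold (log2 −2.35, SE 0.33, limma adjusted p = 0.00706), and a second probe gave −2.28. The call was lost without KO 1 (−2.12, adjusted p = 0.0696). With slide as a block the change was −1.85 (adjusted p = 0.601), and the control-slide difference was 0.41.

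NAP030039-1, a transcript that the array's design does not tie to a gene, had nearly the same level on every control, 2.09, 2.10 and 2.11. On the KO arrays it was at −0.70, −0.55 and −0.25. It fell 6.07-fold (log2 −2.60, SE 0.16, adjusted p = 7.2e-07), and was also called with slide (−2.37, adjusted p = 0.0429) and scan day (−2.51, adjusted p = 0.0133) as a block. NAP057074-1 was dim, at −3.35, −1.84 and −2.43 in controls and at −5.38, −4.95 and −6.01 in KO, where no array had it well above background. The change was −2.90 (limma adjusted p = 0.0136), which set against the background gave a bound of at least 4.25-fold lower in KO. It was no longer called when slide was a block (−2.34, adjusted p = 0.548), after normexp correction (−0.67, adjusted p = 0.238) or without control 2, control 3, KO 1 or KO 3. The normexp value is smaller than that bound, so the size of the change is not settled. Such a bound sets the mean of the bright group against the dimmest signal counted as above background on each array of the other.

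Cox7a1, the form of this respiratory subunit typical of heart and muscle, was at 2.57, 2.09 and 2.11 in controls and at 3.45, 3.60 and 3.65 in KO. It was the only called gene that rose, 2.47-fold (log2 1.31, SE 0.20, limma adjusted p = 0.0182). The control-slide difference was 0.59. With slide as a block the change was 1.84 (adjusted p = 0.337). The call was lost when control 2, control 3 or any KO array was left out, with values between 1.22 and 1.46.

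Srsf3 was at −1.11, −1.21 and −1.40 in controls and at −2.0, −2.22 and −2.06 in KO, the smallest change called (−0.86, SE 0.13, limma adjusted p = 0.0182). The Keap1 controls lay at −2.22, −2.03 and −2.25, the level of the Nrf2 KO arrays, including the one on the slide of the Nrf2 controls. With slide as a block the change was −1.08 (adjusted p = 0.493), and after normexp correction −0.40 (adjusted p = 0.131). It was not called without control 1, without control 2 or without any 1 of the KO arrays (−0.93 to −0.79).

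Glucuronidation joins glucuronic acid to drugs, bilirubin and steroids so that they can be exported, and its genes lay lower as a list without any call. Of 17 tested members, 9 were lower on every KO array than on any control and none higher (11% and 9.8% over all genes), and the median was −0.60. It was −0.54 with slide and −0.56 with scan day as a block. Ugdh makes the donor of the sugar acid, UDP-glucuronic acid, and 2 motifs stand in its printed promoter. It was at 4.37, 4.5 and 4.0 in controls and at 2.97, 3.27 and 3.24 in KO. The groups lay apart, and the change of −1.13 (SE 0.25) had an adjusted p of 0.156. The control-slide difference of Ugdh was 0.46, and its change with slide as a block was −0.70.

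The lowest members were Ugt2b transferases. Ugt2b35 lay at 4.03, 3.63 and 3.35 in controls and at 1.93, 2.02 and 2.11 in KO (−1.65, SE 0.30, adjusted p = 0.0695). Ugt2b1 was at 3.74, 3.94 and 3.49 in controls and at 2.04, 2.48 and 2.21 in KO (−1.48, adjusted p = 0.0788). Neither gene's groups overlapped. The control-slide difference was −0.13 for Ugt2b35, 0.37 for Ugt2b1 and 0.36 for Ugt2b5. With slide as a block their changes were −1.53, −0.97 and −0.68. Ugt2b37 and Ugt2b5 were at −1.37 and −1.25, Ugt2b38 at −1.01 and Ugt2b36 at −0.67, and probes of such close relatives may share signal. The tested genes of the Ugt1a locus, whose products include the bilirubin transferase, overlapped between groups and were not called. Ugt1a1 was at 0.82 (SE 0.42), Ugt1a9 at 0.35 (SE 0.39) and Ugt1a6b at 0.07 (SE 0.16). Entpd5, which splits the nucleotide released by glycosylation, lay at 4.05, 3.60 and 3.45 in controls and at 2.86, 2.89 and 2.72 in KO (−0.88, adjusted p = 0.197).

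Glutathione S-transferases, which attach glutathione to reactive compounds, were split. None of 21 tested members was called, 7 lay lower and 6 higher without overlap (11% and 9.8% over all genes), and the median was −0.12 (0.06 when slide was a block). Genes of the mu class lay on both sides, with Gstm7 at 0.42 (higher on every KO array than on any control) and Gstm5 at 0.22. Gstm1 was at 9.64, 8.56 and 9.34 in controls and at 8.19, 8.22 and 8.52 in KO (−0.87, SE 0.32, adjusted p = 0.437). Gstm4 was at 2.48, 2.28 and 2.51 in controls and at 1.22, 1.66 and 1.42 in KO (−0.99, SE 0.27, adjusted p = 0.282). For Gstm1 the KO values lay just under the lowest control, while for Gstm4 they were well below it. Gstm3 and Gstm2 were at −0.99 and −0.67. The control-slide difference was 1.09 for Gstm1, 0.33 for Gstm4, 1.21 for Gstm3 and 1.23 for Gstm2, and with slide as a block these genes were at −0.05, −0.34, 0.06 and 0.75.

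In the alpha class, Gsta3, whose promoter is printed above, was at 9.26, 8.93 and 8.96 in controls and at 8.62, 8.65 and 8.76 in KO. The groups did not overlap, but the change was small (−0.37, interval −0.80 to 0.05; adjusted p = 0.63). The control-slide difference of Gsta3 was 0.53, and its change was −0.02 with slide and −0.03 with scan day as a block. Gsta1, Gsta2 and Gsta4 were at −0.85, −0.70 and 0.23, and Gstp1 at −0.81. On the upper side were Gstt2 at 0.68, Gsto2 at 0.50 and Mgst3 at 0.46.

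Glutathione itself is built by glutamate-cysteine ligase, of which Gclc encodes the catalytic and Gclm the modifier subunit. Gclc was at 4.22, 4.40 and 4.21 in controls and at 3.75, 3.77 and 3.93 in KO (−0.46, SE 0.21, adjusted p = 0.553). All KO values lay below all controls, while the control-slide difference was −0.71. Gclm was at 1.66, 0.99 and 1.37 in controls and at 1.21, 1.27 and 1.20 in KO, fully inside the control range (−0.11, interval −0.56 to 0.33; adjusted p = 0.925). Gsr, which recycles oxidized glutathione, was at 2.26, 2.62 and 2.28 in controls and at 1.73, 1.73 and 1.80 in KO, with groups that did not overlap (−0.64, SE 0.15, adjusted p = 0.224). Gss was at −0.33 and the peroxidase gene Gpx2 at −1.02. Of the 20 tested members none was called, 5 lay lower and 3 higher without overlap (11% and 9.8% over all genes), and the median was −0.12.

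Thioredoxin genes, which reduce protein disulfides, leaned the same way. None of 16 was called, 5 lay lower without overlap and none higher (11% and 9.8% over all genes), and the median was −0.17, or 0.03 when fitted by slide. Srxn1, the sulfiredoxin that repairs overoxidized peroxiredoxins, was at 3.56, 3.59 and 3.34 in controls and at 2.38, 2.23 and 2.53 in KO. The groups were clearly apart (−1.12, SE 0.25, adjusted p = 0.18), the control-slide difference was −0.09, and 2 further probes gave −0.99 and −1.08. Txnrd1, the thioredoxin reductase of the cytosol, was at 4.30, 4.09 and 4.05 in controls and at 3.56, 3.39 and 3.73 in KO (−0.58, SE 0.16, adjusted p = 0.28). Txn1 was at −0.46 and Prdx1 at −0.34. The control-slide difference of Txn1 was 0.42, and its change was −0.01 with slide and −0.03 with scan day as a block.

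Osgin1, an oxidative stress response gene counted with this list, was at 5.13, 4.79 and 4.90 in controls and at 2.68, 2.64 and 3.69 in KO. KO 3 stood 1 log2 unit above the other KO arrays, yet below every control. The change was −1.93 (SE 0.37, adjusted p = 0.0788), with −1.91 from a second probe and −2.39 with slide as a block, and the control-slide difference was −0.65.

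Genes that supply NADPH and handle heme and iron held no call. Me1, the malic enzyme, was at 3.44, 3.41 and 2.81 in controls and at 2.25, 2.20 and 2.38 in KO. The groups lay apart (−0.94, SE 0.48, adjusted p = 0.596), but the control-slide difference was 1.58 and the change with slide as a block was 0.92. G6pdx, which opens the pentose phosphate pathway, overlapped between groups (0.30, adjusted p = 0.793). Idh2 was at 0.62 and Pgd at −0.06, and 3 of 13 members lay lower and 3 higher without overlap (11% and 9.8% over all genes). Hmox1, heme oxygenase, was at 2.43, 2.45 and 2.93 in controls and at 2.96, 2.82 and 3.21 in KO, so that it did not lie lower in KO (0.40, interval −0.17 to 0.97; adjusted p = 0.726). Of 23 heme and iron genes 4 lay lower and 1 higher without overlap, with Ftl1 and Blvrb at −0.48 and −0.55.

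Among transporters, Abcc3 exports glucuronides from hepatocytes to the blood. It was at 5.33, 4.52 and 4.68 in controls and at 3.26, 3.47 and 4.11 in KO. No KO value reached the controls, and the change was −1.23 (SE 0.25, adjusted p = 0.104), with −0.98 from a second probe and −1.01 with slide as a block. Abcg2, the exporter of sulfates and drugs, was at 4.6, 3.34 and 3.27 in controls and at 2.16, 2.63 and 2.39 in KO (−1.34, SE 0.31, adjusted p = 0.194). Its control-slide difference was 0.24, and its change with slide as a block −0.95. Abcc4 overlapped between groups (−0.09, interval −1.03 to 0.84; adjusted p = 0.974). Its probes disagreed in sign, since a dim second one gave 0.62. Of 25 transporters none was called, 6 lay lower and 1 higher without overlap (11% and 9.8% over all genes), and the median was −0.08.

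Other enzymes of drug metabolism held no call. Of 42 cytochrome P450 genes and their receptors 7 lay lower and 7 higher without overlap (11% and 9.8% over all genes), and the median was −0.07. Cyp2a5 was at −0.15 (adjusted p = 0.943), with a control-slide difference of 1.41, and at 1.38 with slide as a block. Of 15 sulfotransferase genes none was called, 3 lay lower and 5 higher, among them Sult2a2. It was at 5.93, 5.81 and 4.96 in controls and at 7.19, 7.15 and 7.32 in KO (1.65, SE 0.60, adjusted p = 0.422). Sult3a2 was at −2.11. Of 21 alcohol and aldehyde dehydrogenase genes none was called, 4 lay lower and 2 higher, with Aldh1a1 at −1.28 and Aldh1a7 at −0.89.

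Lipid synthesis genes lay a little higher in KO. None of 29 was called, 8 lay higher and 1 lower without overlap (9.8% and 11% over all genes), and the median was 0.28 (1.08 with slide as a block). Srebf1, the regulator of fatty acid synthesis, was at 6.36, 5.97 and 6.24 in controls and at 6.87, 7.08 and 7.65 in KO (1.01, SE 0.41, adjusted p = 0.485). Scd1, the stearoyl-CoA desaturase, overlapped between groups (0.53, adjusted p = 0.738). Cholesterol synthesis genes showed the opposite split, with 8 of 25 lower and none higher without overlap, a median of −0.14 and Sqle, squalene epoxidase, at −1.38. That median turned to 0.53 with slide as a block. Fatty acid oxidation genes were near 0 (48 tested, 3 lower, 2 higher, median −0.08), as were those of bile acid synthesis (22 tested, 6 lower, 2 higher, median −0.05), where Cyp8b1 was at −1.55 and Cyp7a1, the rate-limiting enzyme, at 0.11. None of these was called.

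Stress programs held no call. In the list for ATF4 and the endoplasmic reticulum, 10 of 30 genes lay lower and 2 higher without overlap (11% and 9.8% over all genes). The list's median was −0.25 (−0.57 when slide was a block). Sdf2l1 and Asns were at −1.45 and −1.06, and Atf3 at 1.19. Of 36 proteasome subunit genes 7 lay lower and 1 higher, with a median of −0.09 and Psmb5 lowest at −0.39. Medians were 0.00 for 18 heat shock genes, −0.06 for 20 p53 targets, 0.12 for 28 acute phase genes and 0.01 for 36 interferon-induced genes. Glucose metabolism genes had a median of 0.07 (27 tested, 7 higher and 1 lower without overlap).

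Further lists held genes that differ by sex, by time of day and with cell division. Of 16 male-biased genes 10 lay lower and none higher without overlap (11% and 9.8% over all genes), with a median of −0.88 and a median control-slide difference of 0.66. Hsd3b5, a steroid dehydrogenase of male liver, was at −0.34, 3.64 and 3.15 in controls and at −1.54, −0.58 and −0.96 in KO, so control 1 lay closer to the KO arrays than to the other controls (−3.18, SE 0.97, adjusted p = 0.331). Susd4 was at −1.77 (adjusted p = 0.104) and Elovl3, a fatty acid elongase, at −2.12 (adjusted p = 0.592). The control-slide differences of Hsd3b5, Susd4 and Elovl3 were 1.67, 0.76 and 2.03, and with slide as a block their changes were −1.39, −1.0 and −0.36. Of 21 female-biased genes 8 lay higher and none lower, with a median of 0.18 and a median control-slide difference of 0.20. Cux2, a repressor of male genes, was at 1.86 (SE 0.93, limma adjusted p = 0.592). Its control-slide difference was 1.55, and its change with slide as a block 4.65. All samples were labelled female.

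Cell division genes had a median of −0.58 (−0.28 after normexp correction) and a median control-slide difference of −0.59. Of 30 tested, 12 lay lower and 1 higher without overlap (11% and 9.8% over all genes). Mki67, a marker of dividing cells, was at 0.68, 0.80 and 0.84 in controls and at −0.31, −0.06 and −0.92 in KO (−1.21, SE 0.38, adjusted p = 0.355). Circadian clock genes had a median of 0.19 and a control-slide difference of 0.65, with 5 of 18 higher and 2 lower. Clock and Arntl, partners in the activating arm, were at −0.80 (SE 0.5) and −0.97 (SE 1.24), and Dbp, one of its targets, at 0.68 (SE 1.13). None of the genes in these 4 lists was called. Fitted with slide as a block, the medians were −0.42 for male-biased, 0.62 for female-biased, −0.79 for cell division and 1.17 for circadian clock genes.

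**Figure D3:**
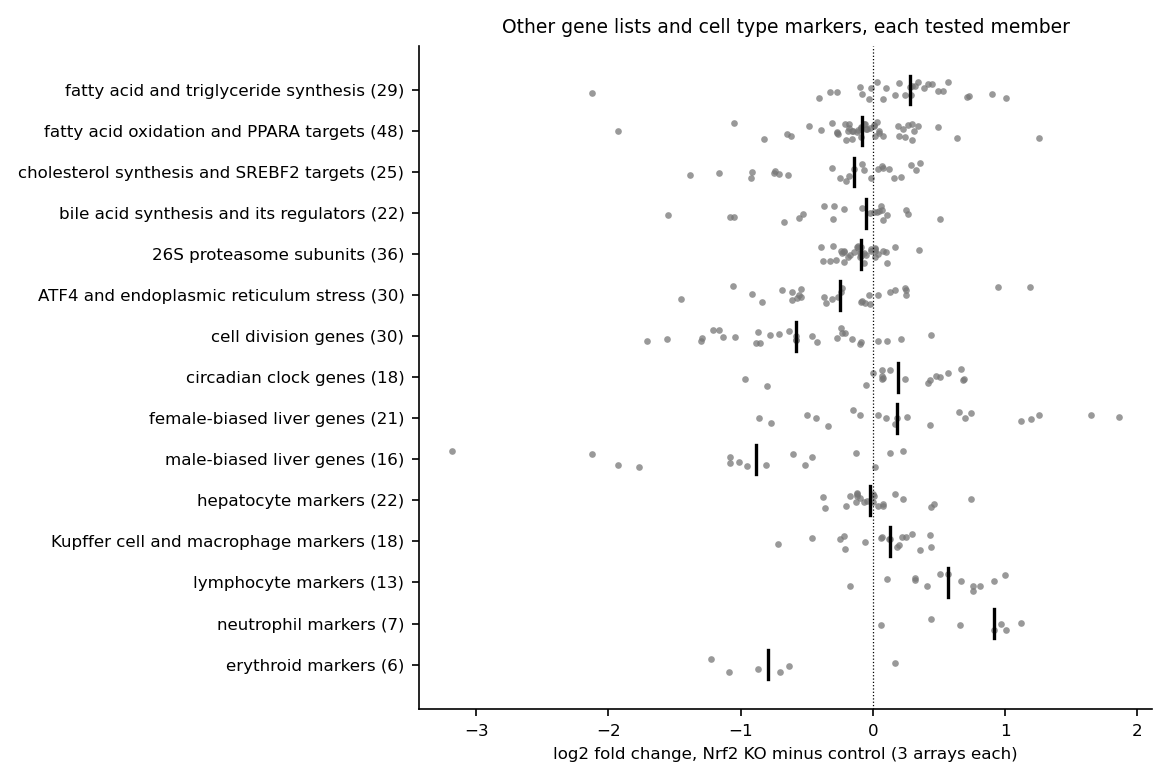
Log2 fold change, Nrf2 KO minus control, of every tested member of 15 further lists, with the number tested in brackets and medians as black bars. No member was called; the medians of neutrophil (0.92) and lymphocyte (0.57) markers lie highest and those of male-biased (−0.88) and erythroid (−0.79) genes lowest.

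Markers of the liver's cell types described what the samples held. Hepatocyte markers, among them Alb, Ttr and Hnf4a at −0.13, 0.00 and 0.08, had a median of −0.02 over 22 genes, with 3 higher and none lower without overlap. Macrophage, endothelial, stellate and cholangiocyte lists had medians of 0.13, 0.17, −0.06 and −0.07. Lymphocyte markers lay higher, with 8 of 13 without overlap (9.8% over all genes) and a median of 0.57 (0.24 after normexp correction). Cd4, Cd79a and Ncr1 were on the array but not above background throughout any group. The sum of the linear signals of the 13 markers, relative to the array's 75th percentile, was 6.51 to 10.3 in controls and 11.3 to 12.9 in KO. Gzmb, a protease of killer lymphocytes, was at −2.40, −2.67 and −2.33 in controls and at −1.65, −1.14 and −1.62 in KO (1.0, SE 0.41, adjusted p = 0.502).

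Neutrophil markers summed to 3.32 to 5.09 in controls and 6.03 to 12.5 in KO, with 3 of 7 higher without overlap, while Elane, Cxcr2, Ngp and Mmp8 were not above background throughout any group. Their median of 0.92 stood beside a control-slide difference of −1.06, and with slide and scan day as a block it was 0.09 and −0.29, and after normexp correction 0.19. Erythroid markers lay lower, with 4 of 6 without overlap, sums of 392 to 489 in controls and 196 to 347 in KO, and a control-slide difference of 0.71. Over all genes, 9.8% lay higher and 11% lower without overlap. The median of these markers, −0.79, became −1.39 when slide was a block. None of these markers was called. The part of blood or immune cells in the gene results was not tested. Pancreas markers (6 tested, median −0.14) and adipocyte markers (3 tested, median −0.35) gave no call.

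The neighbours of Nfe2l2 were read as the genes nearest to the altered locus. Of the 15 tested genes on each side along chromosome 2, none of 30 was called by limma, and the median was −0.07. An unadjusted p under 0.05 was found for 8 of the 30 (over all genes, 3.79% higher and 5.1% lower). Without overlap, 6 lay higher and 5 lower (9.8% and 11% over all genes). The direct neighbours Hnrnpa3 and Agps were at −0.14 and −0.19. Rbm45, an RNA-binding protein gene and the 4th tested gene past Nfe2l2, had the highest value. It was at −4.18, −5.13 and −4.72 in controls, where no array had it well above background, and at −1.67, −2.09 and −2.10 in KO, above background on all. The bound was at least 4.96-fold higher in KO. The change of 2.73 had a limma adjusted p of 0.0606, and the control-slide difference of Rbm45 was −0.79. After normexp correction, which shrinks values near background, the change was only 0.80 (adjusted p = 0.0214), below that bound, so its size is not settled. It was called in 6 of 21 alternatives. All other neighbours lay between −0.51, for Cdca7, and 0.83, for Pdk1.

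**Figure D4:**
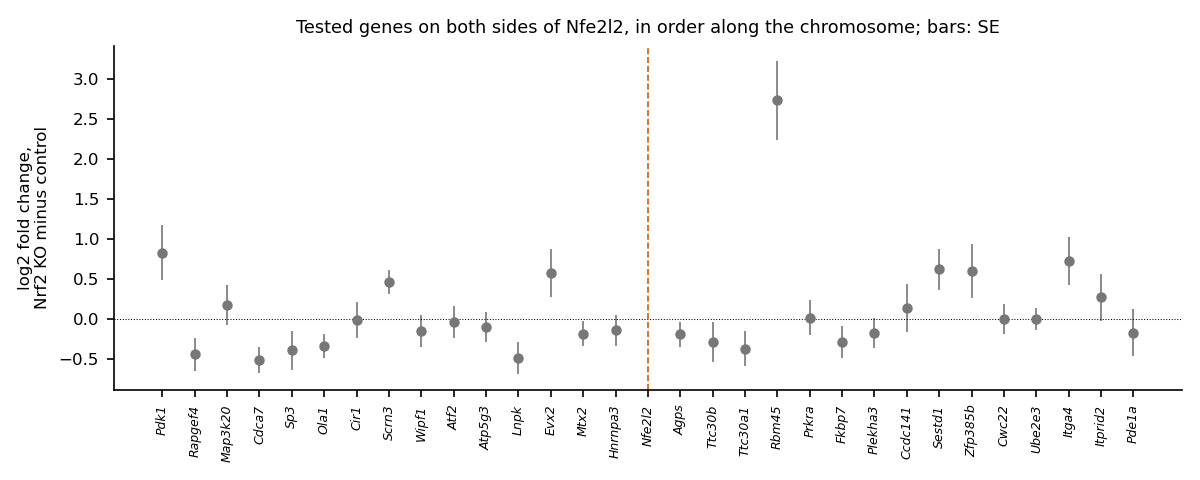
Log2 fold change, Nrf2 KO minus control, with its standard error, for the 15 tested genes on each side of Nfe2l2 in their order along the chromosome (spacing is by rank, not distance; Nfe2l2 itself, at −8.20, is marked by the dashed line and not drawn). Rbm45 is drawn at 2.73, a size that rests on control arrays below background and is 0.80 after normexp correction; the other 29 neighbours lie between −0.51 and 0.83.

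Keap1 knockdown livers, in which less KEAP1 leaves more NRF2, address the same targets from the other side. That comparison called 168 genes higher (0.948%) and 811 lower (4.58%). The Nrf2 KO effect differed from the Keap1 KD effect in 548 genes (3.09%; limma interaction), among them all 11 genes called in Nrf2 KO. The same Nrf2 arrays had picked these 11, so their passing is no separate evidence. The 548 genes became 27 with slide and 80 with scan day as a block, and 175 without KO 1. Most of these differences were therefore not called in such fits. No sample is shared by these comparisons, although some slides are. Aox1 was at 2.62, 2.85 and 3.45 in Keap1 controls and at 4.89, 4.79 and 5.06 in Keap1 KD, so it fell without NRF2 and rose with less KEAP1 (1.94, limma adjusted p = 0.000636). Nqo1 did the same with the larger value on the Keap1 side, at 0.80, 0.05 and 0.64 in Keap1 controls and 3.61, 3.99 and 3.87 in KD (3.33, adjusted p = 6.55e-06). Ces1g rose in Keap1 KD by 1.06 (adjusted p = 0.0138), and Srsf3 by 0.61 (adjusted p = 0.0146). Cox7a1, which rose without NRF2, fell in Keap1 KD by 1.03 on the log2 scale (adjusted p = 0.00848).

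Some genes were called in 1 of the lines. Ces1b, Ces1f and Keg1 fell in Nrf2 KO and were at 0.47, 0.48 and 0.57 in Keap1 KD (adjusted p = 0.116, 0.322 and 0.428). On the other side stood Cbr3 and Abcc4. Cbr3 was at 0.46, 1.05 and 1.24 in Keap1 controls and at 6.88, 7.16 and 7.89 in KD, a rise of 6.39 (adjusted p = 6.55e-06), against −0.33 in Nrf2 KO. Abcc4 rose by 2.92 in Keap1 KD (adjusted p = 0.00262), against −0.09. For both genes the difference between the lines passed its own test (−6.73 with adjusted p = 7.47e-05, and −3.01 with adjusted p = 0.0219). Ugdh, Srxn1 and Abcc3 rose by 1.92, 2.06 and 1.53 in Keap1 KD (adjusted p = 0.00123, 0.00109 and 0.00378), while their lower levels in Nrf2 KO were not called.

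**Figure D5:**
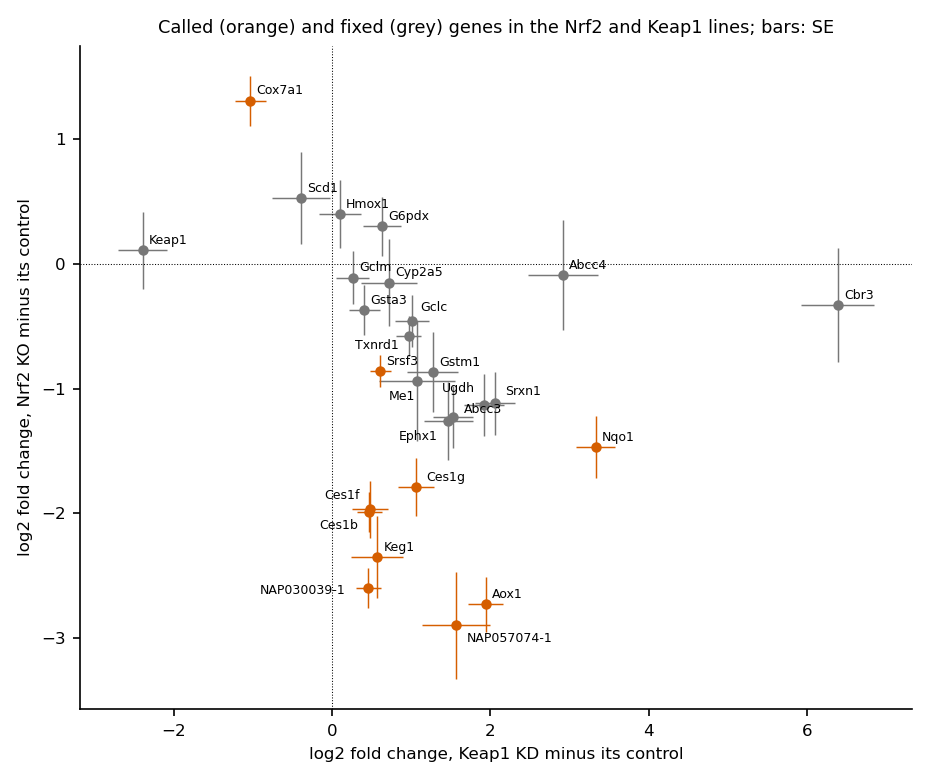
Log2 fold change in Nrf2 KO (vertical axis) against Keap1 KD (horizontal axis), each minus its own control with 3 arrays per group and bars for standard errors, for the called genes (orange) and a fixed set of NRF2-related genes (grey), without Nfe2l2 and Nfe2l1. Nqo1 and Aox1 lie at the lower right, Cox7a1 at the upper left, and Cbr3 (6.39 and −0.33) far to the right near the horizontal line.

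Lists read the same way gave median log2 fold changes in Keap1 KD of 0.81 for glutathione S-transferases (9 of 21 called higher), 0.44 for glucuronidation (3 of 17), 0.19 for carboxylesterases (2 of 14) and 0.21 for reductases (4 of 19). Over all genes, 0.948% were called higher there. None of these lists had a member called lower there. In the fit with no block, the members whose Nrf2 and Keap1 effects differed numbered 7, 5, 4 and 4 (3.09% over all genes). With slide as a block only 27 of all genes differed, and the lists were not counted in that fit.

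Against liver without NRF1, where 1416 genes were higher (7.99%) and 1932 lower (10.9%), the Nrf2 KO effect differed in 988 genes (5.58%). Only 8 genes differed with slide as a block, 201 with scan day, and 388 when KO 1 was left out. In the fit with no block, of the 11 called genes, which the same Nrf2 arrays had picked, 10 differed. Ces1f, which fell in both lines (−0.87, limma adjusted p = 0.0189, in Nrf1 CKO), did not pass (−1.10, adjusted p = 0.0592). Aox1, Nqo1, Keg1 and Ces1b were at 0.47, 0.27, 0.03 and −0.17 in Nrf1 CKO, none of them called. Srxn1 and Ephx1 rose there, by 1.13 and 1.47 (adjusted p = 0.00825 and 0.00667), and differed from their values in Nrf2 KO by −2.24 and −2.73 (adjusted p = 0.00508 and 0.00577). The proteasome list, with 25 of 36 subunits called lower in Nrf1 CKO (median −0.61), held no call in Nrf2 KO.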

How the data were processed

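Total RNA of 18 livers, 500 ng each, was labelled with Cy3 and read on single-colour Agilent arrays, per the labels. Images were read with Agilent Feature Extraction 10.7.3.1, per the file headers. The deposited processed signal intensities are background-subtracted and detrended by that software, per the file headers, and not normalized between arrays. The intensities in the authors' series table equalled them at all 810324 entries. The deposited well-above-background, saturation, outlier and control flags (other output of the software, per the file headers) served as filters, and the deposited raw median intensities of spot and background as an alternative.

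Of 45018 spots, 1639 controls and outlier spots were left out. Log2 intensities of a probe's spots were averaged and scaled by log2 of the array's 75th percentile. Symbols were found for 26718 of 41174 probes (64.9%) through RefSeq. Probes above background on all 3 arrays of a group were tested (23554), with the brightest probe per gene: 17721 genes, 12874 with a symbol. limma 3.58.1 (R 4.3.3) fitted 6 group means over the 18 arrays (12 residual degrees of freedom), with Benjamini-Hochberg adjustment over all genes and calls at an adjusted p under 0.05. The code was tested on simulated data.

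Genes are named by these rules: 23 fixed genes (Nnt was not analysed here), all called genes, and others chosen after their values were seen. The members, the 39 gene lists and the tests were chosen with earlier results of these data known. Replicate numbers did not pair the samples: deviations of same-numbered KO and control arrays correlated at −0.078, −0.051 and 0.052. Symbols, gene order and promoters came from reference tables of a build other than that of the files. Alternatives changed the normalization, the filters, the probe summary, the arrays fitted, the weights and the blocks.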

Additional observations from a re-analysis of the deposited data

Results flagged for a closer look

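Results are given here where the effect of losing NRF2 differed from the effect of the matching contrast in another line by a limma interaction test (adjusted p under 0.05), among the called genes and the fixed genes. The called genes were picked by the same Nrf2 arrays that enter this test, so their passing is no separate evidence. Groups of 3 arrays are too small for a test of single outlying samples. Only 27 genes differed from the Keap1 effect and 8 from the Nrf1 effect in all when slide was a block, so the values below rest on the fit with no block. Differences are log2 fold changes, Nrf2 KO effect minus the other effect.

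Against Keap1 KD, the targeted gene Nfe2l2 differed by −8.01 (adjusted p = 1.63e-05) and Keap1 by 2.50 (adjusted p = 0.00918). Among detoxification enzymes the differences were −4.80 for Nqo1, −6.73 for Cbr3, −4.67 for Aox1, −2.73 for Ephx1, −3.05 for Ugdh and −2.14 for Gstm1, with adjusted p-values from 3.07e-06 (Aox1) to 0.0245 (Gstm1). The carboxylesterase genes Ces1b, Ces1f and Ces1g differed by −2.46, −2.45 and −2.86. Redox genes differed by −1.47 for Gclc, −1.56 for Txnrd1 and −3.18 for Srxn1, and the exporters Abcc3 and Abcc4 by −2.75 and −3.01. The remaining differences were −2.92 for Keg1, −1.47 for Srsf3, −4.48 for NAP057074-1 and −3.06 for NAP030039-1. Cox7a1, at 2.34, was the only one besides Keap1 with a positive difference.

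Against Nrf1 CKO, each line's own target stood out, with −8.88 for Nfe2l2 and 10.17 for Nfe2l1, where the loss lies in the other line (adjusted p = 6.84e-06 and 1.05e-12). Nqo1 differed by −1.74, Srxn1 by −2.24, Aox1 by −3.19 and Ephx1 by −2.73. Ces1g and Ces1b differed by −2.27 and −1.82, and Keg1 by −2.39. Scd1, which was called lower in Nrf1 CKO, differed by 2.16 (adjusted p = 0.0291). Cox7a1 differed by 1.74, Srsf3 by −1.49, NAP057074-1 by −2.24 (adjusted p = 0.0444) and NAP030039-1 by −2.29. Sizes for Nfe2l2, Nfe2l1 and NAP057074-1 rest in part on arrays below background.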

How the results depend on the processing

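Of 240 values of the 11 called genes under alternatives, 182 kept their call, 58 lost it and 0 changed direction. Aox1 and NAP030039-1 were called in 22 of 22 alternatives and Nfe2l2 in 21 of 21; Nqo1 and Srsf3 were called in 10 of 22 each and Cox7a1 in 11. The counts of 1 higher and 10 lower gene became 2 higher with quantile normalization, with the filter on the Nrf2 groups alone, with the mean of all probes, after normexp and with slide as a block (9 lower, 3 shared with the main calls). They were 0 higher without a filter (32282 genes, whose median moved to −0.11), 21 lower with the array median, 0 and 6 in the 6 Nrf2 arrays alone, 3 and 18 with an intensity trend, 24 and 92 with array quality weights, and 6 lower with scan day as a block (3 shared). With slide as a random block, an alternative chosen after seeing the data, they were 1 and 11. With the replicate number as a block they were 0 and 5. Leaving out 1 array gave 0 to 2 higher and 6 to 10 lower genes, the fewest without KO 1.

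The 548 genes that differed from the Keap1 effect became 276 with quantile normalization, 157 without a filter, 320 with genes above background on all arrays, 222 after normexp, 199 with the replicate block, 27 with slide and 80 with scan day as a block, and 175 to 630 without 1 array. The 988 that differed from the Nrf1 effect became 572 with the array median, 314 without a filter, 5664 with quality weights, 658 with the replicate block, 8 with slide and 201 with scan day as a block, and 388 to 792 without 1 array; both ranges were lowest without KO 1. Where no cause follows from fewer genes or arrays, the cause was not tested.

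Of 1247 values of named genes that were not called, 45 became called and 17 changed direction. With slide as a block the latter were Me1 (0.92), Cyp2a5 (1.38), Ces2b (0.16), Gstm3 (0.06), Gstm2 (0.75) and S100a9 (−0.12), and with scan day Gstm1 (0.02), Me1 (0.60), Cyp2a5 (1.28), Gstm3 (0.11), Gstm2 (0.75) and S100a9 (−0.48). Abcc4 turned to 0.27 with the mean of its probes. Without 1 array Abcc4 ranged from −0.25 to 0.20, Keap1 from −0.19 to 0.27 and Gclm from −0.29 to 0.05, the turned values being those without control 1 and, for Abcc4, also without KO 2 (0.07). Aox3 and Pir were called in 5 of 22 alternatives each, and Ugt2b35 and Osgin1 likewise. Of 858 medians of gene lists under alternatives, 66 moved by more than 1 SD between replicates. Dim genes, such as Rbm45 and NAP057074-1, are limited by their signal over background.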
